A study of Mus musculus with 12 samples.

Results

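The genes described here make cholesterol, sense it and remove it. They were chosen as the 29 symbols of a list of cholesterol synthesis and sterol regulation genes, matched to the gene names of a deposited count table of 23079 genes. Of these symbols 28 matched by name, and these are the 28 members counted below. The remaining gene, Msmo1, is listed in the table under its older symbol Sc4mol with the same Entrez identifier, so it is described beside the members but left out of their counts.

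RNA came from dopaminergic neurons of C57BL/6 mice in the substantia nigra pars compacta (SNpc) and in the ventral tegmental area (VTA), neighbouring midbrain regions whose dopaminergic neurons are lost to different extents in Parkinson disease. The labels call the libraries TRAP samples, read here as translating ribosome affinity purification, which pulls down ribosomes tagged in a chosen cell type and recovers their RNA. No treatment or mutation separates the groups, and the tagging transgene, the cells that carry it and the age, sex and number of animals per library are not stated. The table has 12 columns, but SNpc columns 4 and 5 are identical for every gene, as are VTA columns 2 and 3. Each pair, differing by less than sampling noise, was counted as 1 sample, which left SNpc libraries 1, 2, 3, 4 and 6 and VTA libraries 1, 2, 4, 5 and 6, and values below follow that order. The labels do not tie each library to its own animals, and the p-values therefore reflect library-to-library spread, which may be technical.

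Neurons and glia of the adult brain make nearly all of their own cholesterol, because lipoproteins do not cross the blood-brain barrier. Synthesis runs from acetyl-CoA through mevalonate and the isoprenoid diphosphates to squalene, then through lanosterol to cholesterol. The transcription factors SREBP1 and SREBP2, encoded by Srebf1 and Srebf2, switch on these genes when membrane sterol is low, carried to the Golgi by Scap and held in the endoplasmic reticulum by the Insig proteins when sterol is high. Liver X receptors answer sterol excess and raise exporters such as Abca1 and Abcg1 and the ubiquitin ligase Mylip.

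Of the 18 synthesis enzymes among the members, 8 were called modestly higher in SNpc and 0 in VTA. Insig1 and Mylip were also higher in SNpc, while the SREBP1 gene Srebf1 and the exporter Abca1 were higher in VTA. All 28 members passed the filter on low counts, and 10 of them were called higher in SNpc, where the share over all 15685 genes tested was 17.8% (edgeR quasi-likelihood test, p adjusted by Benjamini-Hochberg over all genes, threshold 0.05). Another 2 members were called higher in VTA, against 20.4% of all genes, and 16 were not called. The 28 log2 fold changes, SNpc minus VTA, had a median of 0.28 and ran from -1.42 to 0.64, beside a median of -0.04 over all genes tested. Of the 28, 22 were above 0, as were 47.5% of all genes. The size of these changes depended on the model. With the trend on transcript length removed the median was 0.13, or 0.12 with the library scale refitted. Then 11 or 10 members were called higher in SNpc, beside 15.4% or 14.9% of all genes. With glial markers as a covariate the median was 0.18, and 6 members were called higher in SNpc and 1 in VTA, among them 3 synthesis enzymes, Idi1, Fdft1 and Cyp51. Calls over all genes also fell in that model, to 10.5% higher in SNpc and 14.2% in VTA.

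**Figure D1:**
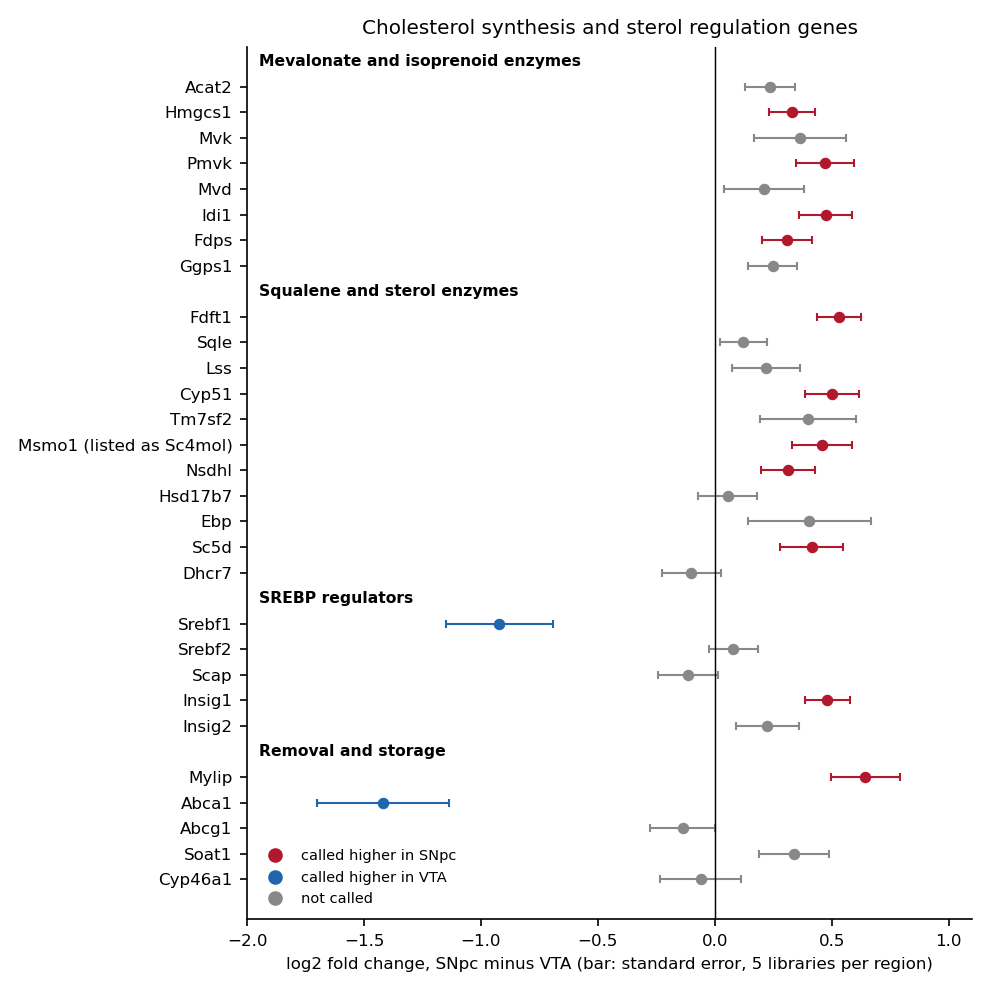
Log2 fold change (SNpc minus VTA) of each gene with its standard error, grouped by role, from 5 libraries per region. Red points were called higher in SNpc, blue points higher in VTA and grey points were not called. The enzymes lie between -0.10 and 0.53, with Dhcr7 alone left of 0, while Srebf1 (-0.92) and Abca1 (-1.42) lie far to the left.

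The libraries differed by region in more than these genes. Total counts ran from 62951005 to 65959443 in SNpc and from 62356964 to 81393907 in VTA, and the smallest count of any member in a library was 262. The 12 dopaminergic markers, led by Slc6a3, Th and Ddc, summed to between 10115 and 14694 CPM (the share of library counts a gene takes, TMM-scaled by edgeR) in SNpc and to between 5140 and 8472 CPM in VTA, and 10 of the 12 were called higher in SNpc and 0 in VTA. The 14 astrocyte markers, led by Slc1a2, Aldoc and Slc4a4, summed to between 483 and 820 CPM in SNpc and to between 705 and 915 CPM in VTA, with 5 called higher in VTA and 0 in SNpc. The 14 oligodendrocyte markers, among them Mbp and Mobp, summed to between 327 and 1551 CPM in SNpc, where library 4 was the highest, and to between 852 and 1043 CPM in VTA, with 2 called higher in VTA. Of the 10 vascular markers, led by Flt1 and Pdgfrb, 8 were tested and 3 were called higher in VTA, and VTA library 1 held the highest sum, 112 CPM, against 8.22 to 19.5 CPM in the other VTA libraries and 2.67 to 15.1 CPM in SNpc. General neuron markers were higher in SNpc for 5 of 6 genes (sums of 11566 to 14332 CPM in SNpc and 7277 to 8649 CPM in VTA). SNpc library 4 had the highest sum among SNpc libraries for every glial list. Other cell types also differed by region, with 3 of 10 microglia markers, 2 of 5 oligodendrocyte precursor markers and 2 of 3 glutamatergic neuron markers called higher in VTA and 0 of them in SNpc. Their sums were 15.9 to 43.2 CPM in SNpc and 40.2 to 55.8 CPM in VTA for microglia, 8.16 to 21.8 CPM in SNpc and 18.8 to 35.03 CPM in VTA for precursors, and 18.6 to 87.7 CPM in SNpc and 93.1 to 131 CPM in VTA for glutamatergic neurons. Of 4 GABAergic markers, 1 was higher in SNpc (sums of 294 to 518 CPM in SNpc and 306 to 399 CPM in VTA). None of these 4 lists is in the glial covariate, which holds the astrocyte and oligodendrocyte markers. No marker of these lists was at 0 in every library. Long transcripts were also relatively scarcer in SNpc libraries, where each doubling of transcript length went with a log2 CPM difference of -0.186 to -0.0402, against 0.0701 to 0.236 in VTA libraries. The part of these differences in the results below was addressed by 2 models, with glial markers as a covariate or with the length trend removed, and is otherwise not tested. In RNA from pooled cells, fewer cells of a type and less RNA per cell cannot be told apart.

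SREBP proteins act on promoters together with NF-Y and Sp1, so the promoters of 4 genes higher in SNpc, and of Abca1, higher in VTA, are shown. The 250 bases before the annotated start are given 5′ to 3′ from RefSeq on GRCm38.p6 (mm10), with capitals marking matches on either strand to a sterol regulatory element (TCACNCCAC), to the NF-Y box (CCAAT, or ATTGG on the other strand) and to the palindromic E-box (CACGTG).
Hmgcs1, chr13:119690101-119690350, plus strand: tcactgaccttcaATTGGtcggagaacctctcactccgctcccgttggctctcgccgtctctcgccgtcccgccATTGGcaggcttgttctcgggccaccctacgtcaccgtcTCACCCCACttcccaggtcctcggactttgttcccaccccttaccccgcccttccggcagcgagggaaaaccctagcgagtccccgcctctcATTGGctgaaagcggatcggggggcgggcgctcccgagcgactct
Idi1, chr13:8885356-8885605, plus strand: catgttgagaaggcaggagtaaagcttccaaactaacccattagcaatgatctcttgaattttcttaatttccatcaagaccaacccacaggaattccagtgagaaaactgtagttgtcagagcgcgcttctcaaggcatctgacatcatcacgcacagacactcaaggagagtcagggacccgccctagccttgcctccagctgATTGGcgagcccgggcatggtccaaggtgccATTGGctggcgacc
Cyp51, chr5:4104698-4104947, minus strand: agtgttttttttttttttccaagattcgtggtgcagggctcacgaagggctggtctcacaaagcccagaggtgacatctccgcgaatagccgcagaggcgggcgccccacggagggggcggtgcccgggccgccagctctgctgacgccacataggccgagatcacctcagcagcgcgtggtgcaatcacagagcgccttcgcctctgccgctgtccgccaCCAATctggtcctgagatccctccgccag
Insig1, chr5:28071162-28071411, plus strand: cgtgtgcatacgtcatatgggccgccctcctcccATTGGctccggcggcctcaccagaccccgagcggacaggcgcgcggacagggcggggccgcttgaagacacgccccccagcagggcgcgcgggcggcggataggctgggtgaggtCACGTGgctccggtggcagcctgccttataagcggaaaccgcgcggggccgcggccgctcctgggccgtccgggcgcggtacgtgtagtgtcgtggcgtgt
Abca1, chr4:53159896-53160145, minus strand: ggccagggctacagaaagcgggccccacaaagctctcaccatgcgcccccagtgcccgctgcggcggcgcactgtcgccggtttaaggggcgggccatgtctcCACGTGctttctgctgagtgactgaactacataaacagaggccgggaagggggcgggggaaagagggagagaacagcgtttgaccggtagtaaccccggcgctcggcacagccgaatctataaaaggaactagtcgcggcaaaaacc

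Of the 29 genes, 25 had such a window, and Abcg1, Fdft1, Fdps and Sqle had none in the table used. The NF-Y box, bound by a factor that works beside SREBP, was in the windows of 22 of the 25 genes (88%), beside 40.1% of the 12333 tested genes with a window and 37.5% of all 27025 genes with a window. Among the windows shown, Hmgcs1 held 3 of them, Idi1 2 and Abca1 none. Srebf1, also higher in VTA, and genes not called, such as Mvk, held the box too. Acat2 and Scap, not called, lacked it. Whether the box goes with the region difference was not tested. The palindromic E-box, which SREBP1 can also bind, was in 6 of the 25 (24%), among them Insig1 and Abca1, beside 9.34% of tested genes and 6.86% of all genes. Only Hmgcs1 matched the sterol regulatory element letters, from 137 to 129 bases before the start, beside 1.25% of tested genes and 1.22% of all genes. The Sp1 box (GGGCGG, either strand, not capitalised) was in 22 of the 25 genes (88%), beside 60.7% of tested genes and 35.4% of all genes. These matches describe letters in a short window. They show neither binding nor its absence.

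Of the 8 enzymes of the mevalonate and isoprenoid steps, 4 were called higher in SNpc and 0 in VTA, beside 17.8% and 20.4% of all genes. All 8 had a positive log2 fold change, as did 47.5% of all genes, and their median was 0.32. Removing the length trend left 3 called and 6 positive, with a median of 0.08, beside 15.4% of all genes called higher in SNpc. With glial markers as a covariate only Idi1 was called, beside 10.5% of all genes higher in SNpc, and the median was 0.22. Hmgcs1, the cytosolic HMG-CoA synthase that condenses acetyl-CoA units (Entrez 208715, mm10 chromosome 13, 119690351 to 119708260), stood at 311, 246, 252, 217 and 267 CPM in SNpc libraries, against 192, 196, 220, 198 and 224 CPM in VTA libraries. SNpc library 4 lay within the VTA range and the other SNpc libraries above it. The log2 fold change of 0.33 ± 0.10 (SE) was called (edgeR adjusted p = 0.0147), but not without SNpc library 1 (adjusted p = 0.051) or with glial markers as a covariate (0.17, adjusted p = 0.283). Nor was it called in the 8 libraries whose numbers, as kept after merging, both regions share (adjusted p = 0.0589, or 0.113 with the number as a block). Of the 100-base stretches of the Hmgcs1 transcript, 10.8% also occur in the opposite-strand transcript Gm48342, and since the kit does not mark strand such reads cannot be told apart.

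Idi1, the isomerase that makes dimethylallyl diphosphate (chromosome 13, 8885606 to 8892396), was at 134, 111, 102, 107 and 117 CPM in SNpc and at 65.7, 78.0, 96.9, 81.4 and 87.5 CPM in VTA. Every SNpc library was above every VTA library. It changed by 0.47 ± 0.11 on the log2 scale (SE, edgeR adjusted p = 0.0034), and the call held in each alternative tried, with adjusted p from 0.000183 to 0.0491. Stretches covering 27.6% of its transcript recur in Gm13502, Gm48574 or Gm35570, so its level is uncertain by the reads shared with them.

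Pmvk, phosphomevalonate kinase (chromosome 3, 89454541 to 89469014), had 108, 132, 118, 108 and 92.7 CPM in SNpc against 66.6, 68.6, 80.0, 91.4 and 96.9 CPM in VTA. Only SNpc library 6 and VTA library 6 crossed, and the change was 0.47 ± 0.12 on the log2 scale (SE, edgeR adjusted p = 0.00667). With the length trend removed the change of this short transcript (1194 bases) was 0.10 (adjusted p = 0.466), and with glial markers as a covariate it was 0.42 (adjusted p = 0.0542). Fdps, farnesyl diphosphate synthase (chromosome 3, 89093588 to 89101967), had 117, 105, 105, 92.3 and 112 CPM in SNpc and 73.2, 74.6, 91.7, 92.4 and 97.2 CPM in VTA. SNpc library 4 lay within the VTA range. Its change of 0.31 ± 0.11 (SE, edgeR adjusted p = 0.0312) was not called with the length trend removed (-0.03, adjusted p = 0.85) or with glial markers as a covariate (0.18, adjusted p = 0.341). Leaving out SNpc library 1, 2, 3 or 6 or VTA library 1 or 2 also ended the call, with adjusted p up to 0.0815. Of its 100-base stretches 75.8% recur in Gm43738, Gm3571 or Gm5873.

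The other 4 enzymes of this segment were not called. Acat2, the thiolase that starts the pathway, averaged 90.7 ± 5.22 CPM in SNpc and 76.9 ± 10.1 CPM in VTA (mean ± SD, n = 5 each), with a log2 fold change of 0.24 (edgeR adjusted p = 0.089), which was 0.06 with the length trend removed and passed the threshold without SNpc library 4 (0.30, adjusted p = 0.0443). It also passed with DESeq2 (adjusted p = 0.0472) and with all 12 columns (edgeR adjusted p = 0.0427), where the identical columns are counted separately. Acat2 shares 35.3% of its stretches with its paralog Acat3 or with Tcp1. Mevalonate kinase Mvk (0.36, adjusted p = 0.161) and mevalonate diphosphate decarboxylase Mvd (0.21, adjusted p = 0.351) were among the less abundant enzymes, with Mvk at 12.9 to 23.7 CPM in SNpc against 10.98 to 19.8 CPM in VTA and Mvd at 16.6 to 29.5 CPM in SNpc against 16.8 to 23.8 CPM in VTA. Removal of the length trend put Mvk at 0.07 and Mvd at -0.08, and without VTA library 5 Mvk was called (0.53, adjusted p = 0.0464). Ggps1, which makes the geranylgeranyl diphosphate used for protein prenylation, averaged 127 ± 14.3 CPM in SNpc and 107 ± 11.8 CPM in VTA (mean ± SD, n = 5 each). Its change of 0.25 (adjusted p = 0.0726) passed the test with the length trend removed (0.36, adjusted p = 0.0135) and without SNpc library 4 (adjusted p = 0.0358) or VTA library 6 (adjusted p = 0.0322). Ggps1 was also called with DESeq2 (adjusted p = 0.0336), with RLE library scaling (edgeR adjusted p = 0.0405) and with all 12 columns (edgeR adjusted p = 0.0191).

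Of the 10 members that turn farnesyl diphosphate into squalene and cholesterol, 4 were called higher in SNpc and 0 in VTA, beside 17.8% and 20.4% of all genes. A positive log2 fold change was found for 9, and for 47.5% of all genes, and the median was 0.36. With the length trend removed the median was 0.17 and 4 were called, beside 15.4% of all genes higher in SNpc. With glial markers as a covariate it was 0.17 and 2 were called, beside 10.5% of all genes higher in SNpc. Fdft1, squalene synthase and the committed step to sterols (Entrez 14137, chromosome 14, 63145150 to 63181687), was at 374, 333, 325, 306 and 321 CPM in SNpc and at 202, 201, 237, 256 and 252 CPM in VTA. The lowest SNpc library was above the highest VTA library. Its change of 0.53 ± 0.10 (SE, edgeR adjusted p = 0.000378) held in each alternative, with adjusted p from 4.02e-07 to 0.0095. Fdft1 exons overlap those of the cathepsin gene Ctsb on the opposite strand over 774 bases, 20.9% of its exonic bases. Ctsb was itself higher in SNpc, at 395 ± 33.0 CPM against 258 ± 38.2 CPM in VTA (mean ± SD, n = 5 each), a log2 fold change of 0.61, and its part in the Fdft1 count was not tested.

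Cyp51, the lanosterol demethylase (chromosome 5, 4080674 to 4104697), had 93.1, 103, 88.6, 79.4 and 79.3 CPM in SNpc and 55.0, 53.6, 73.3, 67.2 and 64.8 CPM in VTA. The regions did not overlap. The change of 0.50 ± 0.12 (SE, edgeR adjusted p = 0.00268) held in each alternative, with adjusted p up to 0.045. Akap9, whose exons overlap 4.22% of those of Cyp51 on the opposite strand, moved the other way, at 82.9 ± 11.9 CPM in SNpc and 134 ± 18.4 CPM in VTA (mean ± SD, n = 5 each).

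Nsdhl, the sterol dehydrogenase of the demethylation complex, was at 38.9 to 49.2 CPM in SNpc and at 31.5 to 40.3 CPM in VTA. Its change of 0.31 ± 0.12 (SE) was called narrowly (edgeR adjusted p = 0.0423). It missed the threshold when library totals set the scale, when the length trend was removed (0.12), in the glial covariate model (0.19), and when SNpc library 1, 2, 3 or 6 or VTA library 1, 4 or 5 was left out, where adjusted p reached 0.109. Sc5d, the sterol C5 desaturase, had 46.4, 52.4, 42.0, 50.2 and 66.2 CPM in SNpc and 38.3, 33.0, 37.1, 39.8 and 44.8 CPM in VTA. Only SNpc library 3 fell below the highest VTA library. The change of 0.41 ± 0.13 (SE, edgeR adjusted p = 0.0212) was lost without SNpc library 6 or VTA library 2, where adjusted p reached 0.0659, and with glial markers as a covariate (0.39, adjusted p = 0.105). Msmo1, the methylsterol monooxygenase that works between Cyp51 and Nsdhl, had 63.1, 78.3, 63.6, 52.9 and 67.2 CPM in SNpc and 49.4, 36.5, 48.0, 49.5 and 53.0 CPM in VTA under its listed name Sc4mol. Its change of 0.46 ± 0.13 (SE, edgeR adjusted p = 0.00899) became 0.24 with the length trend removed (adjusted p = 0.133) and 0.31 with glial markers as a covariate (adjusted p = 0.156).

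The remaining 6 members of this segment were not called. Squalene epoxidase Sqle, a rate-limiting step of the sterol branch, averaged 159 ± 13.3 CPM in SNpc and 146 ± 17.0 CPM in VTA (mean ± SD, n = 5 each), a change of 0.12 (edgeR adjusted p = 0.357). Lanosterol synthase Lss (0.22), the C14 reductase Tm7sf2 (0.40), the ketoreductase Hsd17b7 (0.05) and the isomerase Ebp (0.40) also had positive log2 fold changes, with adjusted p from 0.136 to 0.766. Lss was called with the length trend removed (0.39, adjusted p = 0.0499), while Tm7sf2 was at 0.08 and Ebp at 0.13, and with glial markers as a covariate Lss (-0.03) and Hsd17b7 (-0.04) were below 0. Without SNpc library 4 both Lss (0.37, adjusted p = 0.0407) and Tm7sf2 (0.53, adjusted p = 0.0482) were called. Dhcr7, which makes cholesterol from 7-dehydrocholesterol, was the only enzyme with a negative value, at 29.8 to 37.7 CPM in SNpc and 31.8 to 43.1 CPM in VTA (-0.10, adjusted p = 0.563). Over both segments, the regions did not overlap for 3 of the 18 synthesis enzymes, SNpc being above VTA in each (Idi1, Fdft1 and Cyp51), beside 12% of all genes tested.

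**Figure D2:**
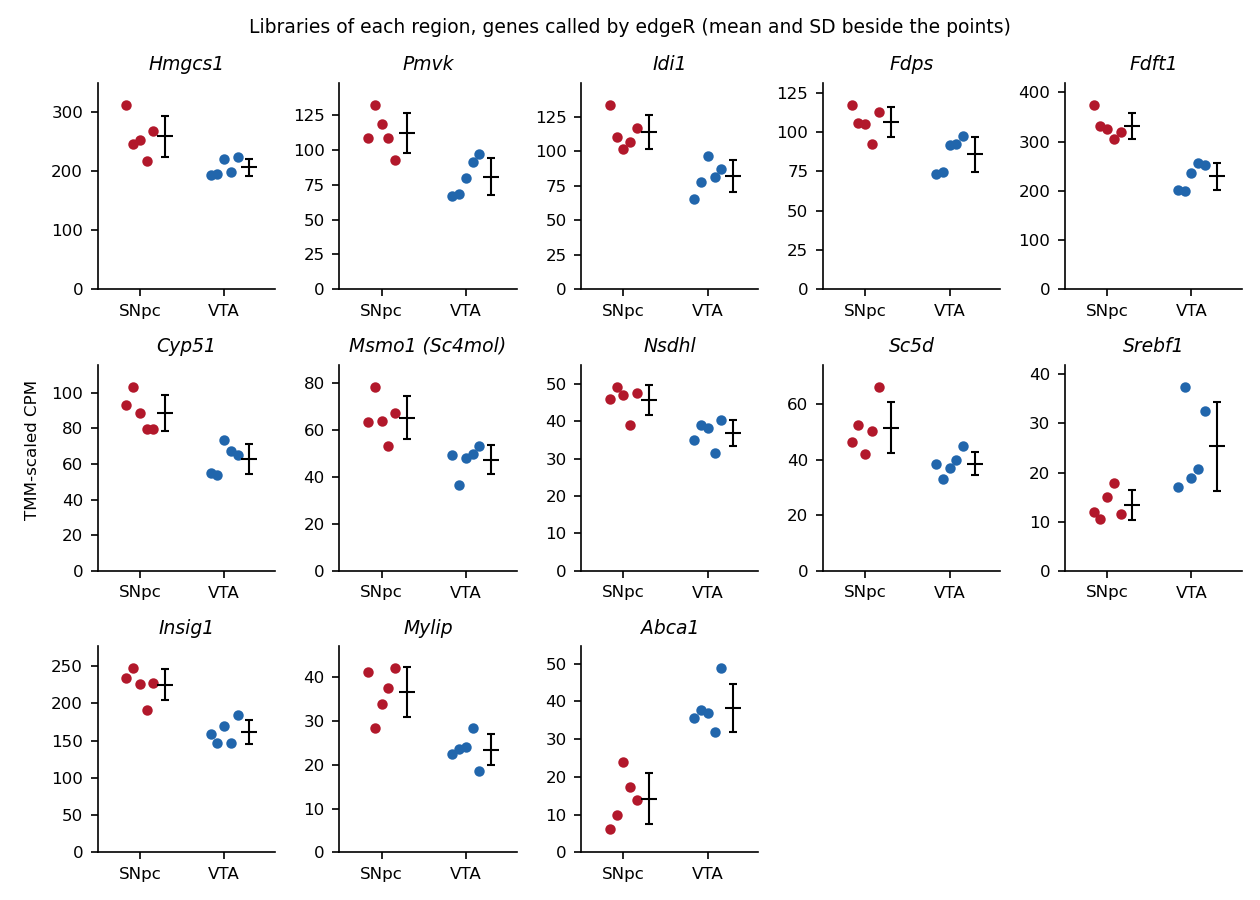
TMM-scaled CPM of each library (points) for the called genes, SNpc in red at the left and VTA in blue at the right, with the mean and SD of 5 libraries beside them and axes from 0. The regions are apart for Idi1, Fdft1, Cyp51, Insig1 and Abca1, and overlap for the others.

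The regulators split. Insig1, the sterol-sensing retention protein and itself an SREBP target (Entrez 231070, chromosome 5, 28071412 to 28078662), had 234, 247, 226, 191 and 227 CPM in SNpc and 159, 147, 169, 146 and 184 CPM in VTA. Every SNpc library was above every VTA library. Its change of 0.48 ± 0.10 (SE, edgeR adjusted p = 0.000935) held in each alternative, with adjusted p up to 0.0313. Its relative Insig2 was less abundant, at 55.3 to 88.9 CPM in SNpc and 48.0 to 63.1 CPM in VTA, and was not called (0.22, adjusted p = 0.203), although it passed with glial markers as a covariate (0.44, adjusted p = 0.0323).

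Srebf1 (Entrez 20787, chromosome 11, 60199084 to 60224186) went the other way, with 11.9, 10.5, 15.0, 17.9 and 11.5 CPM in SNpc and 17.0, 37.5, 18.9, 20.6 and 32.5 CPM in VTA. Only SNpc library 4 reached into the VTA range, and VTA libraries 2 and 6 were well above the other VTA libraries. Its log2 fold change was -0.92 ± 0.23 (SE, edgeR adjusted p = 0.00424), and the call ended with glial markers as a covariate (-0.77, adjusted p = 0.0539). Srebf1 overlaps the exons of Rai1 on the opposite strand over 109 bases, 2.54% of its exonic bases. Rai1, a chromatin regulator, was at 132, 163, 290, 108 and 243 CPM in SNpc and at 663, 3209, 975, 1544 and 1921 CPM in VTA, so VTA libraries 2 and 6 were the highest for both genes, and the sources do not say to which gene the shared reads went.

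Srebf2, whose protein drives the synthesis genes above, averaged 127 ± 12.8 CPM in SNpc and 120 ± 14.8 CPM in VTA (mean ± SD, n = 5 each), a change of 0.08 ± 0.11 (SE, edgeR adjusted p = 0.59). With the length trend removed it was 0.30 (adjusted p = 0.046). Scap, the SREBP escort, averaged 57.6 ± 2.24 CPM in SNpc and 62.4 ± 12.4 CPM in VTA (-0.11, adjusted p = 0.521), with a coefficient of variation of 3.89% between SNpc libraries and 19.95% between VTA libraries. Counts of RNA do not show how much SREBP was cleaved and active.

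Among the 5 genes of sterol removal and storage, 1 was called in each direction, near the shares over all genes (17.8% higher in SNpc and 20.4% in VTA). Abca1, the transporter that loads cholesterol onto apolipoproteins (Entrez 11303, chromosome 4, 53030789 to 53159988), had 6.09, 10.01, 23.9, 17.4 and 13.9 CPM in SNpc and 35.6, 37.7, 36.8, 31.8 and 48.8 CPM in VTA. The highest SNpc library was below the lowest VTA library, and Abca1 was the only member with VTA wholly above SNpc, a pattern found in 14.6% of all genes tested. Its log2 fold change (-1.42, SE 0.28, edgeR adjusted p = 0.00124) was the largest among the members in absolute size, and SNpc libraries varied most for it, with a coefficient of variation of 48.0% against 16.7% in VTA. Its transcript is long (10262 bases), and with the length trend removed the change was -0.84 (adjusted p = 0.0289). With glial markers as a covariate it was -1.14 (adjusted p = 0.0313).

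Mylip, the ligase that marks lipoprotein receptors for degradation and is a liver X receptor target like Abca1, was higher in SNpc (chromosome 13, 45389742 to 45411940). It had 41.2, 28.4, 33.8, 37.6 and 42.1 CPM in SNpc and 22.4, 23.6, 24.2, 28.5 and 18.5 CPM in VTA. SNpc library 2 and VTA library 5 met at 28.4 and 28.5 CPM and the other libraries were apart. Its change of 0.64 ± 0.15 (SE, edgeR adjusted p = 0.0026) was the highest of the members and held in each alternative, with adjusted p up to 0.0183.

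Abcg1, a further exporter and liver X receptor target, averaged 35.2 ± 6.40 CPM in SNpc and 38.8 ± 4.29 CPM in VTA (mean ± SD, n = 5 each) and was not called (-0.14, edgeR adjusted p = 0.466). Its sign turned with the length trend removed (0.17) and with glial markers as a covariate (0.05). Soat1, which esterifies cholesterol for storage, was at 19.5 to 25.1 CPM in SNpc and 14 to 19.98 CPM in VTA. Its change of 0.34 ± 0.15 (SE) missed the threshold (adjusted p = 0.0848) but was 0.83 with the length trend removed (adjusted p = 0.000638), the transcript being 8371 bases long. Cyp46a1, the neuronal 24-hydroxylase through which most cholesterol leaves the brain, was alike in range, at 13.4 to 20.9 CPM in SNpc and 15.5 to 22.5 CPM in VTA (-0.06, standard error 0.17, adjusted p = 0.814).

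**Figure D3:**
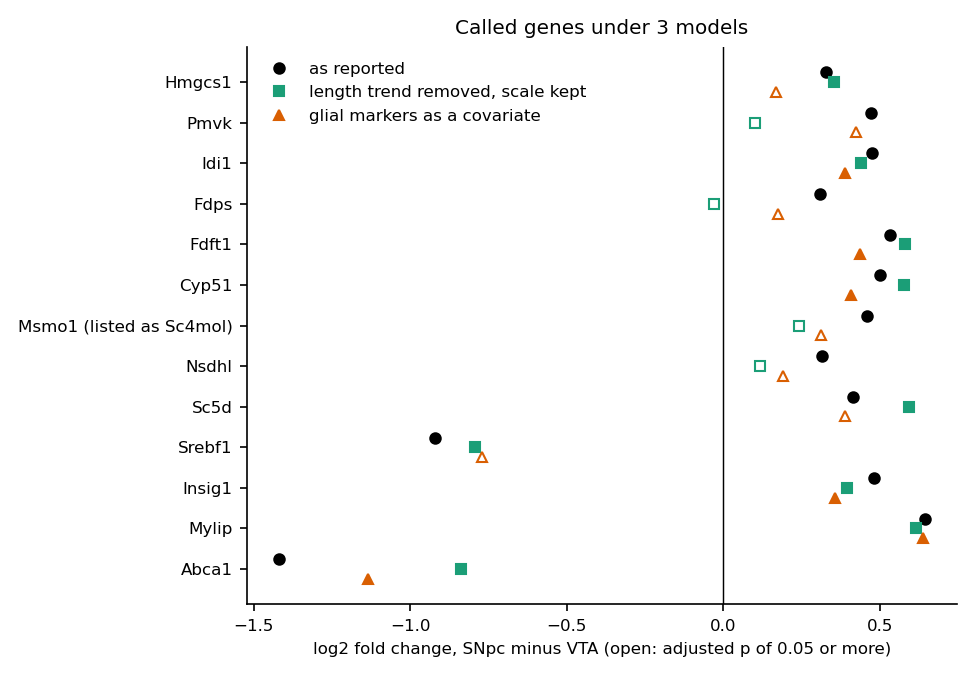
Log2 fold change of the called genes as reported (black circles), with the length trend removed and the library scale kept (green squares) and with glial markers as a covariate (orange triangles). Open symbols missed the threshold. Fdft1, Cyp51, Idi1, Insig1, Mylip and Abca1 are filled in all 3 models, whereas Fdps lies at -0.03 with the length trend removed, against 0.31 as reported.

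Levels per kilobase of transcript, a rough guide for setting genes beside each other, ran from 93.6 to 1.39 CPM per kilobase in SNpc. Dividing by length does not remove the length trend described above, by which long transcripts were relatively scarcer in SNpc libraries. The highest gene, Pmvk, has the shortest transcript of the 29 genes (1194 bases) and the lowest, Abca1, the longest (10262 bases). Reads shared with other genes, as for Fdps, also affect these levels. Pmvk (93.6 ± 12.1 CPM per kilobase in SNpc and 67.6 ± 11.2 in VTA, mean ± SD, n = 5 each), Fdft1 (89.7 ± 6.96 in SNpc and 62.1 ± 7.25 in VTA), Insig1 (83.5 ± 7.81 in SNpc and 59.8 ± 5.96 in VTA), Fdps (77.0 ± 6.79 in SNpc and 62.1 ± 8.05 in VTA) and Hmgcs1 (74.6 ± 9.95 in SNpc and 59.4 ± 4.24 in VTA) were the 5 most abundant in SNpc. Neighbours in that order lay within 1 SD of each other. Sqle followed at 57.7 ± 4.84 CPM per kilobase in SNpc and 53.0 ± 6.17 in VTA. Per kilobase Srebf2 stood at 25.0 ± 2.51 CPM in SNpc and 23.7 ± 2.91 CPM in VTA, and Srebf1 at 3.11 ± 0.706 CPM in SNpc and 5.89 ± 2.12 CPM in VTA, so that the SREBP2 transcript exceeded the SREBP1 transcript in each region. Abca1 was the least abundant in SNpc, at 1.39 ± 0.667 CPM per kilobase, against 3.72 ± 0.621 in VTA, where Soat1 was lower (2.08 ± 0.272). The enzymes Ebp (4.67 ± 0.714 in SNpc and 3.52 ± 1.27 in VTA) and Tm7sf2 (7.19 ± 1.31 in SNpc and 5.45 ± 0.854 in VTA) were among the least abundant enzymes. Other late enzymes were higher, such as Msmo1 (31.8 ± 4.46 in SNpc and 23.1 ± 3.07 in VTA), and the early enzyme Mvk was at 10.8 ± 2.38 in SNpc and 8.39 ± 2.06 in VTA.

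**Figure D4:**
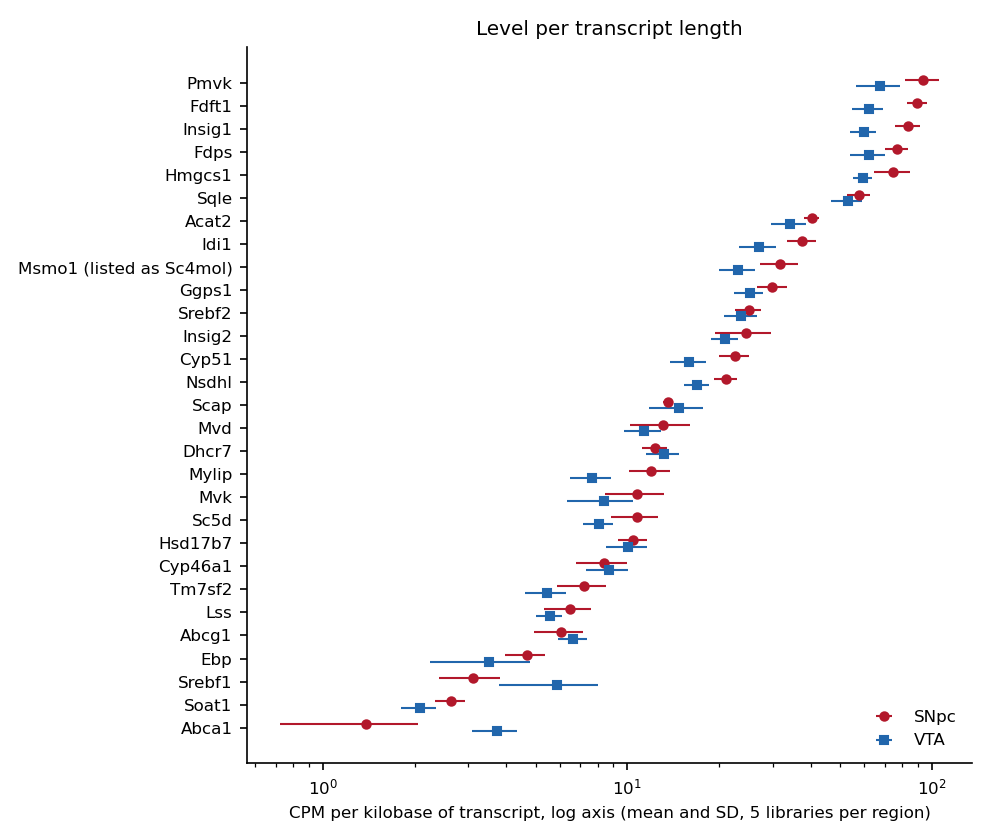
TMM-scaled CPM per kilobase of transcript on a log axis, mean and SD of 5 libraries, SNpc as red circles above VTA as blue squares, ordered by the SNpc level. The 6 leading genes, Pmvk, Fdft1, Insig1, Fdps, Hmgcs1 and Sqle, lie at 57.7 to 93.6 in SNpc, and Srebf1, Soat1 and Abca1 are at the foot.

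Related genes outside the members were grouped into 8 lists. Their counts stand beside 17.8% of all genes called higher in SNpc and 20.4% in VTA. Of 10 tested genes listed with cholesterol synthesis and its acetyl-CoA supply, not all of them specific to it, 4 were called. Each was higher in SNpc, and the median log2 fold change was 0.32. Over the 22 alternatives tried, 2 to 6 were higher in SNpc, with 2 in the glial covariate model and without SNpc library 1, SNpc library 6 or VTA library 4. The mitochondrial thiolase Acat1 averaged 122 ± 6.27 CPM in SNpc and 91.2 ± 4.47 CPM in VTA (mean ± SD, n = 5 each), a change of 0.42 (edgeR adjusted p = 0.00101). The acetyl-CoA synthetase Acss2 (0.39) and Hsd17b12 (0.72), a ketoacyl-CoA reductase of fatty acid elongation, were also called. The citrate lyase Acly was not (0.24, adjusted p = 0.0669). The call of Acss2 ended in 12 of the 22 alternatives, among them the glial covariate model, removal of the length trend and leaving out any of SNpc libraries 1, 3 and 6 or VTA libraries 1, 2, 4 and 6. Of 14 genes of the non-sterol isoprenoid branch, 5 were called, 4 of them higher in SNpc, and the median was 0.29, where 38.2% of all genes were called in either direction. Once the length trend was removed 1 was higher in SNpc, Dhdds, and the median was 0.14. Dhdds, which builds dolichol, changed by 0.58, the farnesyltransferase subunit Fnta by 0.40 and the Rab prenyltransferase subunit Rabggtb by 0.50, the calls of Fnta, Rabggtb and the farnesyltransferase subunit Fntb (0.36, named after its values were seen) ending with the length trend removed. Pdss1, of ubiquinone synthesis, changed by -0.70, a call that ended without SNpc library 1, 2 or 4 or VTA library 5, and Nus1, the partner of Dhdds, was not called (0.23).

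SREBP1 also drives fatty acid synthesis and desaturation. Of 12 tested genes of that list, 4 were called, each higher in VTA, and the median log2 fold change was -0.10. Over all genes 38.2% were called in either direction and 20.4% were higher in VTA. The desaturase Scd1 averaged 53.2 ± 11.5 CPM in SNpc and 102 ± 14.6 CPM in VTA (mean ± SD, n = 5 each), a change of -0.94 (edgeR adjusted p = 8.67e-05). The elongase Elovl6 (-0.45), the desaturase Fads1 (-0.31) and the carboxylase Acacb (-0.88) were the others called. With the length trend removed the calls of Elovl6 and Acacb (then -0.31, adjusted p = 0.515) ended. Acacb also lost its call with RLE library scaling (edgeR adjusted p = 0.0531) and with limma-voom (adjusted p = 0.0626). The calls of Acacb and Fads1 ended with no filter on low counts (adjusted p = 0.0606 and 0.0512), which left 2 genes higher in VTA, and with glial markers as a covariate. They also ended without any of SNpc libraries 2, 3, 4 and 6 or VTA libraries 2 and 4, Acacb without VTA library 1 and Fads1 without VTA library 5. The fatty acid synthase Fasn was not called (202 ± 28.9 CPM in SNpc and 195 ± 21.1 CPM in VTA, 0.05), nor was Scd2 (471 ± 64.8 CPM in SNpc and 458 ± 36.4 CPM in VTA, 0.04). With the length trend removed Fasn (0.65, adjusted p = 0.00012) and Scd2 (0.30, adjusted p = 0.0275) were called higher in SNpc, and the list then held 3 genes higher in SNpc and 2 in VTA.

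Receptors that bring lipoprotein cholesterol into cells had a median of -1.16, and 4 of the 7 tested were called, each higher in VTA, beside 20.4% of all genes. The median was -0.38 and 3 were called once the length trend was removed. Lrp8, an apolipoprotein E and reelin receptor, averaged 60.5 ± 9.03 CPM in SNpc and 157 ± 27.6 CPM in VTA (mean ± SD, n = 5 each), a change of -1.38 ± 0.13 (SE, edgeR adjusted p = 1.02e-06). Lrp1 had 60.1 ± 8.66 CPM in SNpc and 134 ± 12.9 CPM in VTA (-1.16), and the change of this very long transcript was -0.38 with the length trend removed (adjusted p = 0.0108). Scarb1, a lipoprotein lipid receptor, changed by -1.37, and Vldlr by -0.48, which was 0.00 with the length trend removed (adjusted p = 0.992). The call of Vldlr also ended without SNpc library 1, 2, 3 or 4 or VTA library 1, 2, 4 or 5.

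The other lists were mixed, and their shares of called genes were not above the 38.2% of all genes called in either direction. Of 11 genes of SREBP processing and sterol-regulated degradation, 2 were called, each higher in VTA, the ubiquitin ligase Syvn1 (-0.75) and Erlin1 (-0.72), while Rnf139 (-0.36, adjusted p = 0.0633) was not called, and the median was -0.02. With library totals as the scale 4 were higher in VTA, Rnf139 among them (adjusted p = 0.0333), as it was without SNpc library 1 or VTA library 1 or 2, and with all 12 columns 4 were higher in VTA and 1 in SNpc. The call of Erlin1 ended without SNpc library 3 or VTA library 4 or 5, which left 1. Of 12 liver X receptor, efflux and lipoprotein genes, 1 was higher in SNpc, clusterin Clu (0.54), and 3 in VTA, Rxra (-0.72), Abca2 (-0.54) and Pltp (-1.61), with a median of -0.32. Pltp was at 14.4 CPM in VTA library 1 and at 1.86 to 3.34 CPM in the other VTA libraries, against a mean of 1.63 CPM in SNpc, and without VTA library 1 its log2 fold change was -0.67 (adjusted p = 0.26). Its call also ended without SNpc library 1 or 3 and with limma-voom (adjusted p = 0.0906). With the length trend removed the calls of Clu and Abca2 ended, and in the glial covariate model that of Pltp did. Of 16 genes of intracellular sterol transport, 6 were called, 3 for each region, and the median was -0.16, or 0.10 with the length trend removed, where 4 were higher in SNpc and 2 in VTA. Without SNpc library 4 the count higher in SNpc was 6. Stard4, a cytosolic sterol carrier and SREBP2 target, averaged 41.1 ± 5.22 CPM in SNpc and 28.1 ± 2.34 CPM in VTA (mean ± SD, n = 5 each), a change of 0.55 (edgeR adjusted p = 0.00252), and Osbpl1a changed by 0.53. The lysosomal lipase Lipa (-0.70) and the sterol transporter Gramd1b (-0.43) were higher in VTA, and the call of Gramd1b ended with the length trend removed (0.02). Of 6 oxysterol enzymes, Cyp39a1 was higher in SNpc (0.87) and Hsd3b7 in VTA (-0.60), the median was -0.44, or -0.73 with the length trend removed, and Cyp27a1 and Sult2b1 averaged below 1 CPM in each region.

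**Figure D5:**
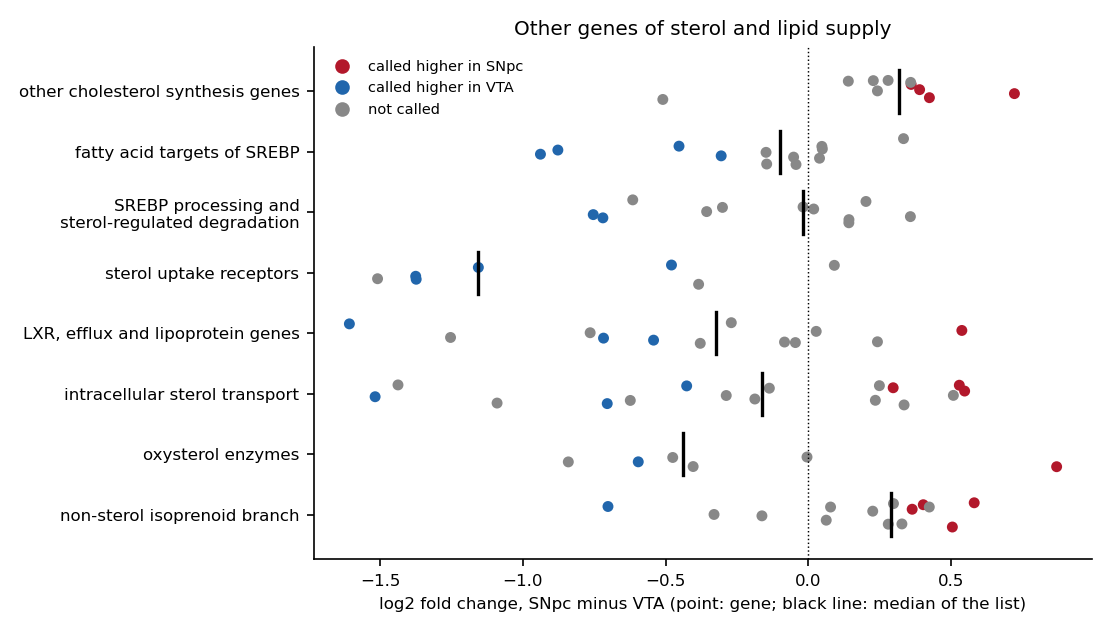
Log2 fold change (SNpc minus VTA) of each tested gene in 8 lists of related genes, with the list median as a black line. Red points were called higher in SNpc, blue points higher in VTA and grey points were not called. The cholesterol synthesis and isoprenoid lists have medians of 0.32 and 0.29, and the uptake receptors -1.16, which were 0.40, 0.14 and -0.38 with the length trend removed.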

How the data were processed

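The deposited values are counts of reads per gene, whole numbers with no normalization, for 12 columns. Reads were aligned with TopHat2 2.0.8 to mm10, per the submitters' processing notes, and came from NuGEN Ovation V2 cDNA and single-end TruSeq libraries, per the labels' protocols, a preparation that does not mark strand. The counting program, annotation and strand setting are not stated in these sources. Identical columns were merged, and 0 columns lacked a sample.

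Genes were filtered with filterByExpr, scaled by TMM and tested over the whole table with the robust quasi-likelihood test of edgeR 4.0.16 in R 4.3.3, SNpc minus VTA, with Benjamini-Hochberg adjustment. DESeq2 1.42.0 and limma-voom (limma 3.58.1) were alternatives, beside other scales, no filter, all 12 columns, each library left out, a replicate block, a glial covariate (astrocyte and oligodendrocyte lists) and removal of a lowess trend (span 0.3) on GENCODE transcript length, known for 20945 genes, with the scale kept or refitted. The scripts were checked on simulated data. Gene positions are from RefSeq, exon overlaps and the 100-base stretches from GENCODE M21, both mm10.

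All members are accounted for. Of each other list up to 6 genes are named, the 2 most abundant and the 4 with lowest p. A few genes that this rule names are not reported here. The members and lists were chosen with earlier results of these data known. Of a list of 11 synthesis genes, 1 did not match the table.

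Labels of both regions carry replicate numbers. Libraries sharing a number as kept after merging had deviations from their region's mean that correlated at -0.0723 to 0.0443. Through the other number of a merged pair, SNpc library 3 matches VTA library 2 (0.0762) and SNpc library 4 matches VTA library 5 (-0.106). Libraries sharing no number correlated at -0.12 to 0.104, so the numbers were not taken to pair the libraries.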

Additional observations from a re-analysis of the deposited data

Results flagged for a closer look

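In 7 cases 1 VTA library stood far from the other 4 of its region, by a gap test that chance passes in about 1 of 20 groups, and 132 groups of 5 were tested. Among the members, Mvk was at 19.8 CPM in VTA library 5, against 10.98 to 13.1 CPM in the other VTA libraries. Hsd17b7 was at 58.8 CPM in the same library, against 40.1 to 44.9 CPM. Lss was at 21.5 CPM in VTA library 1, against 26.0 to 27.7 CPM. Among the related genes, VTA library 2 was high for Acly (197 CPM, against 154 to 166 CPM) and for Fasn (233 CPM, against 181 to 190 CPM). Rxra was low in VTA library 4 (22.7 CPM, against 33.5 to 37.4 CPM), and Pltp was high in VTA library 1 (14.4 CPM, against 1.86 to 3.34 CPM), the library with the most vascular marker RNA. No SNpc library was set apart in this way for these genes.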

How the results depend on the processing

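The count of members higher in SNpc ran from 7 to 14 when single libraries were left out, with 14 without SNpc library 4, and the count higher in VTA was 2 each time. The share of all genes higher in SNpc then ran from 14.5% to 20.9%. The median log2 fold change of the members then ran from 0.24 to 0.38. The median was 0.23 with library totals as the scale, 0.13 and 0.12 with the length trend removed and the scale kept or refitted, and 0.18 in the glial covariate model. That model was the only setting that moved the counts by over 1.5 times, to 6 and 1. It also lowered the shares over all genes, from 17.8% to 10.5% higher in SNpc and from 20.4% to 14.2% in VTA. Of the 12 called members, 6 kept their call there, 9 with the length trend removed, and 12 with DESeq2, limma-voom or SNpc library 4 and VTA library 1 left out together, an alternative chosen after seeing the data.

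With the replicate number as a block over the 8 libraries whose numbers, as kept after merging, both regions share, 7 members were called for SNpc and 2 for VTA. Without the block those 8 libraries gave equal counts, and in both fits Hmgcs1, Fdps and Nsdhl lost their call and the other 9 kept it. Each merged pair was matched by its first number only. The merged SNpc library 4 also carries number 5, and the merged VTA library 2 number 3. Matching by those numbers was not tested.

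Over 638 values of the 29 genes under alternatives, 14 changed sign, and Fdps was the only called gene among those of the 29. The values below also cover related genes outside the 29, namely Gramd1b, Vldlr, Fasn, Scd2, Nus1 and Cyp27a1. Of these, Gramd1b and Vldlr had been called higher in VTA. With the length trend removed (scale kept, then refitted) Fdps was -0.028 and -0.044, Mvd -0.079 and -0.10, Abcg1 0.17 and 0.16, and Gramd1b 0.024 and 0.0087, and Vldlr was 0.00303 with the scale kept (adjusted p = 0.992). With glial markers as a covariate Lss was -0.028, Hsd17b7 -0.041, Srebf2 -0.034, Abcg1 0.050, Cyp46a1 0.037, Fasn -0.17 and Nus1 -0.028. With library totals as the scale Fasn was -0.00701 and Scd2 -0.00803. Fasn was -0.054 with all 12 columns, -0.0209 with the replicate block and -0.016 without it. Cyp27a1, below 1 CPM, was 0.53 with the block, 0.00697 without it and 0.11 without SNpc library 4 and VTA library 1, where Dhcr7 was 0.017. Leaving out single libraries gave -0.13 to 0.027 for Cyp46a1, -0.000745 to 0.19 for Fasn, -0.0021 to 0.096 for Scd2 and -0.84 to 0.045 for Cyp27a1. The causes were not tested.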
